A study of Mus musculus with 6 samples.

Results

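Genes of the lysosome were examined in the transcriptomes of bone marrow (BM) cells labelled mesenchymal stem cells (MSCs) from ovariectomized (OVX) mice that had received fecal microbiota transplantation (FMT). The gene set held every gene of the count table whose symbol was *Cts* followed by 1 letter (the cathepsins) or began with *Atp6v0* or *Atp6v1* (subunits of the vacuolar proton pump, the V-ATPase), together with 18 named genes of the lysosomal membrane, lipid handling, hydrolases and their transcription factors. *Ctsg*, *Ctsk* and *Atp6v0d2*, which serve granulocytes and osteoclasts, were left out by rule. The rule reads gene symbols only and gave 58 of the 56980 genes of the table, 40 of them by symbol pattern. All recipients, whose cells were sequenced, were female OVX mice, operated at 8 weeks of age, whose own microbiota was depleted with antibiotics before gavage of donor feces for 8 weeks. The TranspCtrl group (n = 3) received feces from sedentary mice and the TranspExer group (n = 3) feces from treadmill-exercised mice. The study describes the donors as osteoporotic, whether sedentary or exercised, and contrasts exercised OVX donors with sedentary ones. The comparison asks how marrow cells of estrogen-deficient recipients differ with the exercise history of the fecal donor. Marrow was flushed from femurs and tibias and grown for 7 days with medium changes and washes, and no cell sorting is described, so adherent cells of other lineages could be present. Mouse strain, and whether replicates were single mice, pools or separate cultures, are not given in the sources used here, so that the p-values measure the spread between these samples.

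The lysosome is the acidic organelle in which endocytosed, phagocytosed and autophagocytosed material is broken down. Its lumen is acidified by the V-ATPase, a rotary pump in which the cytosolic V1 sector hydrolyses ATP and the membrane-embedded V0 sector carries protons. Acid hydrolases, among them the cathepsin proteases, glycosidases, lipases and sulfatases, then degrade the cargo, and cholesterol is exported through NPC2 and NPC1. Many of these genes are transcribed under TFEB and its relatives TFE3, MITF and TFEC, basic helix-loop-helix factors that bind E-box sequences in lysosomal gene promoters. In bone marrow, lysosomal genes are highly expressed by macrophages, and osteoclasts send the same pump and the protease cathepsin K to the bone surface.

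Each library held between 17647638 and 21319166 counts assigned to genes. Levels are given below as CPM (counts scaled to a common library total) after trimmed-mean (TMM) scaling of the libraries, and 3 counts, the upper limit that a count of 0 allows, came to between 0.139 and 0.174 CPM per library on the same scale (counting error only). TranspCtrl replicate 1 stood apart from the other libraries of its group: the mean chi-square per gene against TranspCtrl replicates 2 and 3 was 59.2 and 54.0, while that between replicates 2 and 3 was 3.79. Values without this library are therefore given beside each named gene whose call they changed.

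The set as a whole took a larger share of the counts in TranspExer. Its genes made up 3.00%, 2.62% and 2.63% of all counts in TranspCtrl replicates 1 to 3 and 3.84%, 3.90% and 3.83% in the TranspExer libraries, with no overlap between the groups. *Psap*, *Ctsb* and *Ctsd* together supplied between 53.8% and 58.7% of these counts in each library, so the sum mostly followed those 3 genes. Of the 58 genes, 7 had no count in any library, 6 more did not pass the low-count filter, and 45 were tested with the edgeR quasi-likelihood test and Benjamini-Hochberg (BH) adjustment over all 15190 tested genes. The least abundant tested gene, *Ctse*, still had at least 21 counts in every library. Because RNA was measured in bulk, more cells of a kind and more RNA per cell cannot be told apart.

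At an adjusted p of 0.05, 24 of the 45 tested genes (53.3%) were higher in TranspExer and 1 (2.22%) was lower, against 16.6% higher and 15.5% lower among all tested genes. The remaining 20 did not pass. The median log2 fold change (TranspExer over TranspCtrl) was 0.39 for the 45 genes and −0.018 for all tested genes, and 34 of the 45 values were positive. The changes were mostly below 2-fold. With a fold change of 2 required as well, *Lipa* and *Atp6v0a1* were upregulated and *Ctsf* was downregulated, where 3.5% and 5.28% of all tested genes were. All 3 TranspExer libraries lay above all 3 TranspCtrl libraries for 27 genes and below them for 4, and the groups overlapped for 14. The same separation was seen upward in 27.2% and downward in 25.1% of all tested genes. Leaving out 1 library at a time gave between 16 and 31 genes higher, the lowest without TranspExer replicate 2 and the highest without TranspCtrl replicate 1, and no call changed direction.

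**Figure D1:**
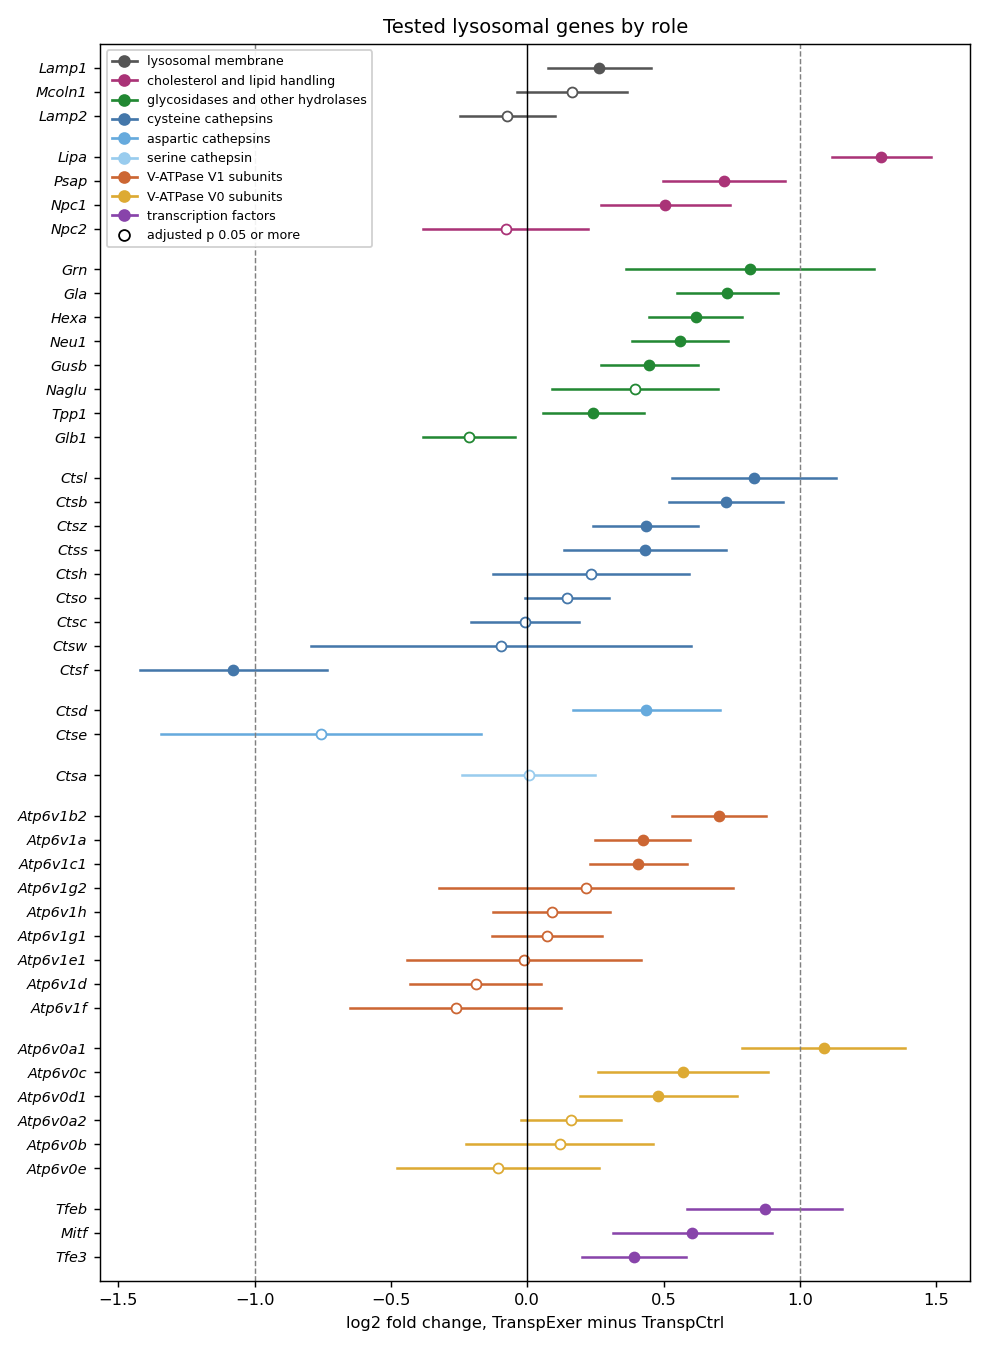
Log2 fold change (TranspExer over TranspCtrl, n = 3 each) of the 45 tested lysosomal genes, ordered within functional groups on the vertical axis. Points are edgeR estimates, bars are 95% confidence intervals, filled points have an adjusted p under 0.05, and dashed lines mark a fold change of 2; *Lipa* and *Atp6v0a1* lie beyond the right line and *Ctsf* beyond the left one.

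Markers of other cell types also differed between the groups. The summed level of 10 macrophage markers, none of them at 0, was 8955 to 14005 CPM in TranspCtrl and 7140 to 7827 CPM in TranspExer, with 2 genes higher, 2 lower and 6 not past the threshold. *Lyz2*, the lysozyme gene, took much of this sum and fell (log2 fold change −1.14 ± 0.23 (SE), adjusted p = 0.00873). Its log2 fold change was −0.80 (adjusted p = 1.69e-06) without TranspCtrl replicate 1, and its adjusted p was 0.0506 without TranspExer replicate 3. Without *Lyz2* the other 9 markers summed to 4903, 4059 and 4020 CPM in TranspCtrl and 4592, 4706 and 4544 CPM in TranspExer, so that TranspCtrl replicate 1 lay above and the other TranspCtrl libraries below all TranspExer values. The 2 higher genes were *Cd68*, a lysosomal glycoprotein (0.78 ± 0.079, adjusted p = 0.000377), and *Mertk*, a receptor for apoptotic cells (0.71 ± 0.083, adjusted p = 0.000735), both named after their values were seen. Beside *Lyz2*, the other lower macrophage marker was *Mrc1* (−0.33 ± 0.078, adjusted p = 0.0159). Osteoclast markers summed to 981 to 1046 CPM in TranspCtrl and 702 to 727 CPM in TranspExer, with 2 of 10 genes higher and 7 lower. Among the lower ones were *Ctsk*, cathepsin K (−2.51 ± 0.15, adjusted p = 4.96e-05), *Mmp9* (−2.42 ± 0.16, adjusted p = 6.50e-05) and *Dcstamp* (−2.26 ± 0.20, adjusted p = 0.000218). Higher were *Atp6v0d2* (1.02 ± 0.082, adjusted p = 0.000136) and *Itgb3* (1.09 ± 0.11, adjusted p = 0.000344). Endothelial markers summed to 176 to 215 against 548 to 600 CPM (6 of 6 higher), and those of B and plasma cells to 2038 to 2381 against 719 to 779 CPM (7 of 8 lower). Neutrophil and primary granule markers summed to 3251 to 4337 CPM in TranspCtrl and 5777 to 6026 CPM in TranspExer, with 5 of 10 higher and 1 lower. MHC class II and dendritic cell markers summed to 622 to 891 against 1187 to 1196 CPM (5 of 6 higher), those of mast cells, basophils and eosinophils to 33.5 to 47.7 against 110 to 121 CPM (5 of 6 higher), and those of T and NK cells to 15.6 to 21.5 against 28.1 to 30.9 CPM (1 of 7 higher). The one higher T and NK gene was *Nkg7* (1.36 ± 0.12, adjusted p = 0.000238), and without it the other 6 summed to 9.0 to 14.2 against 10.2 to 11.4 CPM. Stromal markers, which define the labelled MSCs, were abundant in both groups, at 11804, 19495 and 18821 CPM in TranspCtrl and 12555 to 13809 CPM in TranspExer, with 2 of 10 higher and 7 lower. TranspCtrl replicate 1 lay below and the other TranspCtrl libraries above all TranspExer values. Most of this sum was *Col1a1* and *Col1a2*, and without them the other 8 markers summed to 2109 to 2194 CPM in TranspCtrl and 1690 to 1718 CPM in TranspExer. No marker in any of these lists was at 0 in all libraries. The part of these cell types in the lysosomal differences was not tested.

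The 3 genes of the TFEB family in the set rose. *Tfeb* was at 17.3, 23.7 and 22.6 CPM in TranspCtrl replicates 1 to 3 and at 37.3, 40.7 and 38.4 CPM in the TranspExer libraries. Every TranspExer value exceeded the highest TranspCtrl value, with a log2 fold change of 0.87 ± 0.12 (SE, adjusted p = 0.00179). *Mitf*, the melanocyte and osteoclast member of the family, read 39.2, 54.0 and 52.9 CPM against 74.5, 69.7 and 77.9 CPM. Its log2 fold change was 0.61 ± 0.13 (adjusted p = 0.00957), again without overlap. *Tfe3* showed the smallest difference of the 3, from 75.4, 83.2 and 84.5 CPM to 99.5, 112 and 108 CPM (0.39 ± 0.083, adjusted p = 0.00996). *Tfec*, the remaining gene of the family, which the rule does not take, read 38.2, 38.0 and 37.1 against 36.8, 38.0 and 35.5 CPM and did not pass (−0.039 ± 0.072, adjusted p = 0.697). TranspCtrl replicate 1 had the lowest TranspCtrl value of *Tfeb*, *Mitf* and *Tfe3*. Without it *Tfeb* gave a log2 fold change of 0.74, and without TranspExer replicate 2 the adjusted p of *Tfe3* was 0.0569.

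The palindromic E-box CACGTG, and its 8-base extension GTCACGTG at the core of the CLEAR element bound by this family, were searched on both strands of RefSeq promoter windows of GRCm38.p6, 250 bases before to 50 after the gene start, 300 bases in all. Every GTCACGTG holds a CACGTG. A promoter window was found for 46 of the 58 genes, including 35 of the 45 tested. With fewer than 80% of the tested genes matched, the share of the set that holds the motif was not compared with the background, which was 2.55% of the 27025 genes with a promoter window for GTCACGTG and 8.09% for CACGTG, or 4.5% and 11.4% of the 10940 tested genes with a window. CACGTG occurred in 13 genes of the set and GTCACGTG in 9 of them, of which *Ctsd*, *Gla*, *Lamp1* and *Atp6v0d1* were higher in TranspExer and *Ctsa*, *Glb1*, *Mcoln1*, *Naglu* and *Atp6v0b* did not pass the test. Of the 8 genes of the set with the largest increases, *Gla* held GTCACGTG, *Lipa*, *Atp6v0a1*, *Tfeb*, *Ctsl*, *Grn* and *Psap* did not in the windows searched, and *Ctsb* had no window. One 40-base stretch around the motif is shown for each of the 4 genes called higher and for 3 that did not pass, to show the bases that flank the shared core. The calls of several of these genes changed when 1 library was left out, as given beside each gene. Each is written 5′ to 3′ on the strand of its gene, with GTCACGTG or its reverse complement CACGTGAC in capitals.
Lamp1 (chr8:13159117-13159156, plus strand): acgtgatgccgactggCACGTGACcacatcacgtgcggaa
Ctsd (chr7:142387902-142387941, minus strand): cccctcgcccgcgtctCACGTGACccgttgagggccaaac
Gla (chrX:134601178-134601217, minus strand): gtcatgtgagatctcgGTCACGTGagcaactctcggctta
Atp6v0d1 (chr8:105566046-105566085, minus strand): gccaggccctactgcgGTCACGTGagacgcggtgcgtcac
Atp6v0b (chr4:117887344-117887383, minus strand): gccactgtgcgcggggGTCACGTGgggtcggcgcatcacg
Glb1 (chr9:114401012-114401051, plus strand): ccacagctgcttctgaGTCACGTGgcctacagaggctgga
Mcoln1 (chr8:3500430-3500469, plus strand): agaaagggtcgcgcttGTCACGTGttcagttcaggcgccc
The first base of the motif lay 28 bases before the RefSeq start in *Lamp1*, 98 in *Ctsd*, 196 in *Gla*, 5 in *Atp6v0d1*, 38 in *Atp6v0b*, 50 in *Glb1* and 73 in *Mcoln1*. *Ctsd* and *Mcoln1* each held a second copy in the window, not shown, 245 and 45 bases before the start. A match describes the letters of the window, and factor binding was not measured.

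Among the lysosomal membrane proteins, 1 of 3 rose (33.3%), beside 16.6% higher and 15.5% lower of all tested genes. *Lamp1*, a heavily glycosylated protein that lines the inner face of the membrane, was at 1090, 1198 and 1183 CPM in TranspCtrl and at 1372, 1396 and 1402 CPM in TranspExer. The groups did not overlap and the log2 fold change was 0.26 ± 0.083 (adjusted p = 0.0417). The call was lost, with adjusted p between 0.0656 and 0.140, when any single library other than TranspCtrl replicate 1 was left out. *Lamp2*, which also serves as the receptor of chaperone-mediated autophagy, did not pass, at 492, 532 and 517 against 491, 486 and 488 CPM (95% confidence interval of the log2 fold change −0.25 to 0.10). *Mcoln1*, the calcium release channel mucolipin 1, was at 35.8, 31.0 and 31.4 against 38.2, 35.6 and 36.3 CPM (0.16 ± 0.087, adjusted p = 0.181), and overlapped between the groups. Without TranspCtrl replicate 1 its adjusted p was 0.0149.

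The largest increase of the set was that of *Lipa* (ENSMUSG00000024781, mm10 chr19:34492318-34527474, minus strand), the lysosomal acid lipase that hydrolyses cholesteryl esters and triglycerides. Its level was 371, 392 and 378 CPM in TranspCtrl and 907, 935 and 966 CPM in TranspExer, or 380 ± 11.0 against 936 ± 29.6 CPM (SD, n = 3 each). The spread within each group was small beside the gap between them. The fold change was 2.46, with a log2 fold change of 1.30 ± 0.079 (95% confidence interval 1.12 to 1.48, adjusted p = 4.96e-05). It stayed past both thresholds with each library left out and was 1.28 on the log2 scale without TranspCtrl replicate 1. *Npc1*, the membrane exporter of the cholesterol that LIPA releases, rose from 152, 192 and 188 CPM to 250, 247 and 257 CPM (0.51 ± 0.10, adjusted p = 0.00846). Its soluble partner *Npc2* did not pass, at 734, 534 and 552 against 608, 571 and 543 CPM. In this gene TranspCtrl replicate 1 held the highest value of all libraries, and the 95% confidence interval of the log2 fold change ran from −0.38 to 0.22. *Psap*, the precursor of the saposins that present sphingolipids to hydrolases, was the most abundant gene of the set per gene length, at 2521 CPM per kilobase in TranspCtrl and 4159 in TranspExer. Its level rose from 7087, 6621 and 6387 CPM to 10564, 11191 and 11395 CPM (0.72 ± 0.097, adjusted p = 0.00138).

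The group of glycosidases and other hydrolases, in which *Grn* was counted although it does not encode a hydrolase, gave 6 higher genes of 8 (75%). None was lower, and of all tested genes 16.6% were higher and 15.5% lower. *Gla*, α-galactosidase A, which removes terminal galactose from globotriaosylceramide, was at 47.7, 44.4 and 47.3 CPM in TranspCtrl and 81.6, 78.7 and 71.5 CPM in TranspExer (0.73 ± 0.080, adjusted p = 0.000529). *Hexa*, the α subunit of β-hexosaminidase, rose from 377, 388 and 379 CPM to 571, 590 and 594 CPM (0.62 ± 0.074, adjusted p = 0.00080). *Neu1*, the lysosomal sialidase, read 54.8, 49.9 and 49.3 against 76.8, 77.2 and 73.1 CPM (0.56 ± 0.076, adjusted p = 0.00142). For these 3 enzymes of glycolipid and glycoprotein breakdown the TranspCtrl libraries, replicate 1 included, lay close together and well below every TranspExer library. *Gusb*, β-glucuronidase, showed the same pattern at 233, 258 and 253 against 335, 341 and 338 CPM (0.45 ± 0.077, adjusted p = 0.00425). *Tpp1*, a tripeptidyl peptidase, barely passed at 249, 255 and 249 against 286, 319 and 285 CPM (0.24 ± 0.080, adjusted p = 0.0498). The *Tpp1* call was lost when any single library other than TranspCtrl replicate 1 was left out, with adjusted p between 0.0912 and 0.216.

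*Grn* encodes progranulin, a secreted glycoprotein that is processed to granulins in lysosomes. With all libraries it had the largest difference among the genes grouped with the hydrolases, and also the widest TranspCtrl spread. It stood at 816, 1415 and 1398 CPM in TranspCtrl and 2060, 2082 and 2249 CPM in TranspExer. TranspCtrl replicate 1 was far below its group, yet all TranspExer values exceeded replicates 2 and 3 as well. The log2 fold change was 0.82 ± 0.20 (adjusted p = 0.0169), and 0.60 without TranspCtrl replicate 1. In that fit *Gla* (0.75), *Hexa* (0.61) and *Neu1* (0.61) were larger. With TranspExer replicate 1, 2 or 3 left out the adjusted p was 0.0517, 0.0540 and 0.0671. *Naglu*, which cleaves N-acetylglucosamine from heparan sulfate, missed the threshold at 51.9, 70.5 and 74.7 against 87.2, 82.9 and 89.2 CPM (0.40 ± 0.13, adjusted p = 0.0523), although the groups did not overlap. It passed without TranspCtrl replicate 1 (adjusted p = 0.00410), without TranspCtrl replicate 3 (adjusted p = 0.0403), with DESeq2 (adjusted p = 0.0335), with no low-count filter (adjusted p = 0.0256) and with a replicate block (adjusted p = 0.0419). *Glb1*, the lysosomal β-galactosidase, was the one hydrolase whose TranspExer values were all below TranspCtrl, at 74.0, 74.3 and 68.9 against 86.2, 85.6 and 80.1 CPM. It did not pass (−0.21 ± 0.074, adjusted p = 0.0583), but did without TranspCtrl replicate 1 (adjusted p = 0.0198), with upper-quartile scaling (adjusted p = 0.0244), with library size only (adjusted p = 0.0231) and with a filter of 1 CPM in 3 samples (adjusted p = 0.0361). *Tmppe* overlaps *Glb1* on the same strand, and its mean count was 123 beside 1539 for *Glb1*.

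**Figure D2:**
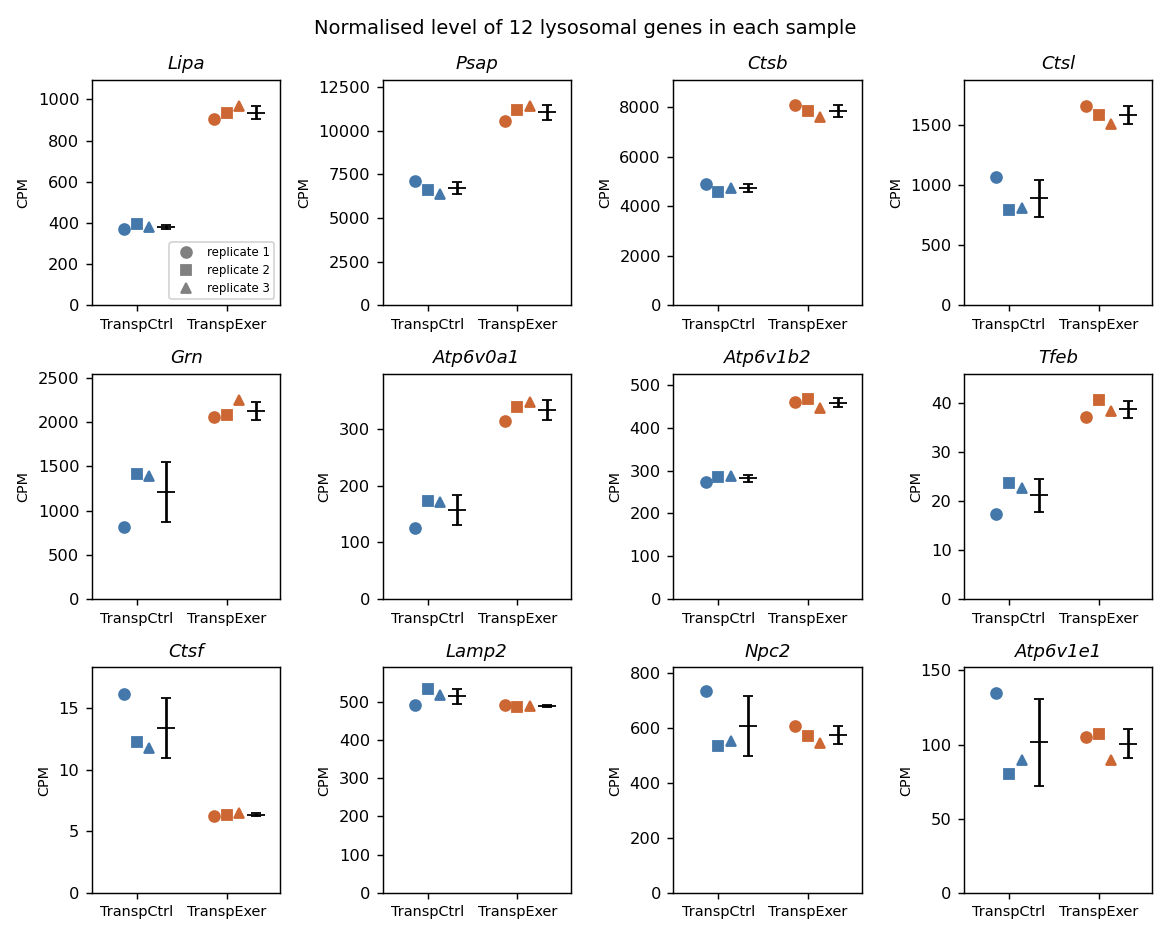
Level in CPM of selected lysosomal genes in each of the 3 TranspCtrl and 3 TranspExer libraries, with 1 panel per gene and its own axis. Points are libraries and bars are mean ± SD; for *Lipa* the TranspExer libraries lie between 907 and 966 CPM and the TranspCtrl libraries between 371 and 392 CPM.

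Of 12 tested cathepsin genes, 5 rose, 1 fell and 6 did not pass, with a median log2 fold change of 0.19. The shares, 41.7% higher and 8.33% lower, stood beside 16.6% and 15.5% of all tested genes. *Ctsl*, cathepsin L, was at 1068, 788 and 806 CPM in TranspCtrl and 1658, 1583 and 1503 CPM in TranspExer. It rose by the largest factor of the cathepsins in the set, with a log2 fold change of 0.83 ± 0.13 (adjusted p = 0.00274), although TranspCtrl replicate 1 lay above its group. *Ctsg*, the neutrophil granule cathepsin left out by rule, rose more, from 27.7 ± 3.65 to 102 ± 4.45 CPM (1.88 ± 0.11, adjusted p = 4.54e-05). *Ctsb*, cathepsin B, rose from 4889, 4581 and 4725 CPM to 8090, 7852 and 7583 CPM (0.73 ± 0.091, adjusted p = 0.000975). *Ctsz*, the carboxypeptidase cathepsin Z, read 495, 434 and 444 against 628, 618 and 609 CPM (0.43 ± 0.084, adjusted p = 0.00690). All TranspExer values of these 3 genes exceeded all TranspCtrl values. *Ctss*, cathepsin S, which trims the invariant chain of MHC class II in antigen-presenting cells, went from 2116, 1589 and 1679 CPM to 2608, 2443 and 2212 CPM (0.43 ± 0.13, adjusted p = 0.0371). Its lowest TranspExer value was only slightly above TranspCtrl replicate 1, and the call was lost, with adjusted p between 0.0758 and 0.140, without any single library other than that replicate.

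*Ctsf* (ENSMUSG00000083282, mm10 chr19:4855130-4860918, plus strand), cathepsin F, was the only gene of the set that fell. It was at 16.2, 12.3 and 11.8 CPM in TranspCtrl and 6.23, 6.34 and 6.46 CPM in TranspExer, or 13.4 ± 2.41 against 6.34 ± 0.116 CPM (SD, n = 3 each). The TranspExer libraries were almost alike, and the highest TranspCtrl value was that of replicate 1. The log2 fold change was −1.08 ± 0.15 (95% confidence interval −1.42 to −0.74, adjusted p = 0.00153). Without TranspCtrl replicate 1 it was −0.92 (adjusted p = 3.21e-05), under the fold change of 2 but still past the adjusted p. *Ctsf* is a low-abundance cathepsin, at 6.77 CPM per kilobase in TranspCtrl beside 998 for *Ctsb*.

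The other cysteine cathepsins did not pass. *Ctsc*, dipeptidyl peptidase 1, which activates the serine proteases of granulocyte granules, was at 672, 770 and 752 against 728, 743 and 710 CPM (95% confidence interval of the log2 fold change −0.21 to 0.19). *Ctsh*, an aminopeptidase, was at 274, 184 and 188 against 269, 253 and 237 CPM, and its 3 TranspExer values fell between TranspCtrl replicate 1 and the other TranspCtrl libraries. Its log2 fold change was 0.23 ± 0.16 (adjusted p = 0.28), and 0.45 (adjusted p = 6.67e-05) without that replicate. *Ctso* was at 50.7 ± 1.33 and 56.1 ± 0.536 CPM (SD, n = 3 each) without overlap (adjusted p = 0.132; 0.0469 without TranspCtrl replicate 1). *Ctsw*, a cathepsin of cytotoxic lymphocytes, had 30 to 65 counts per library, and *Fibp*, which overlaps it on the other strand, had a mean count of 509 against 41.2, so its reads may be shared. *Ctsj*, *Ctsm*, *Ctsq* and *Ctsr*, cathepsins of the rodent placenta, had no count in any library.

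*Ctsd*, cathepsin D, the main lysosomal aspartic protease, was at 3724, 2967 and 2903 CPM in TranspCtrl and 4337, 4341 and 4304 CPM in TranspExer. The groups did not overlap, and the TranspExer libraries agreed closely while TranspCtrl replicate 1 lay above its group. The log2 fold change was 0.44 ± 0.12 (adjusted p = 0.0246), and the call was lost, with adjusted p between 0.0654 and 0.0959, without any single library other than TranspCtrl replicate 1. *Ctse*, an aspartic protease of the endosomes of immune and epithelial cells, had 21 to 51 counts per library and lower TranspExer values, at 1.31, 1.34 and 1.04 against 1.81, 2.62 and 1.81 CPM. It did not pass (−0.76 ± 0.25, adjusted p = 0.0533), but did without TranspCtrl replicate 1 (adjusted p = 0.0306). *Ctsa*, a serine carboxypeptidase that protects β-galactosidase and the sialidase in a complex, gave no detectable difference, at 573, 459 and 458 against 484, 505 and 507 CPM (95% confidence interval −0.24 to 0.25). *Pltp* overlaps *Ctsa* on the opposite strand and was itself abundant (mean count 4143 against 9777), and whether strand was used in counting is not given in the sources used here.

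V-ATPase subunit genes split into risers and genes that did not pass, with none lower: 6 of 15 tested were higher (40%), beside 16.6% higher and 15.5% lower of all tested genes. In the membrane sector V0, 3 of 6 tested genes (50%) rose. *Atp6v0a1* (ENSMUSG00000019302, mm10 chr11:101009452-101063719, plus strand), one of the alternative a subunits that anchor the pump and direct it to a compartment, was at 126, 174 and 172 CPM in TranspCtrl and 315, 340 and 348 CPM in TranspExer. The lowest TranspExer library was well above the highest TranspCtrl library. The fold change was 2.12, with a log2 fold change of 1.09 ± 0.13 (95% confidence interval 0.79 to 1.39, adjusted p = 0.00080). Without TranspCtrl replicate 1, the lowest library, it was 0.95 (adjusted p = 4.99e-08) and thus under 2-fold. *Atp6v0c*, the proteolipid that forms the rotating ring, rose from 445, 613 and 635 CPM to 821, 834 and 861 CPM (0.57 ± 0.14, adjusted p = 0.0157). *Atp6v0d1*, which couples that ring to the central stalk, rose from 90.5, 124 and 124 CPM to 156, 155 and 162 CPM (0.48 ± 0.13, adjusted p = 0.0221). TranspCtrl replicate 1 was again the lowest library of both. The call of *Atp6v0c* was lost without TranspExer replicate 2 or 3 (adjusted p = 0.0565 and 0.0622), and that of *Atp6v0d1* without TranspExer replicate 1, 2 or 3 (adjusted p = 0.0661, 0.0680 and 0.0798).

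The V0 genes that did not pass were *Atp6v0a2* (log2 fold change 0.16), *Atp6v0b* (0.12) and *Atp6v0e* (−0.11). *Atp6v0b*, a second proteolipid, was at 113, 75.7 and 79.6 against 102, 93.2 and 96.1 CPM, so that TranspCtrl replicate 1 lay above and the other TranspCtrl libraries below all TranspExer values. Without that replicate its log2 fold change was 0.32 (adjusted p = 0.000797). *Atp6v0a4* and *Atp6v0e2*, with at most 12 counts in a library, were not tested, and the pseudogenes *Atp6v0c-ps1* and *Atp6v0c-ps2* had at most 1 count each.

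In the catalytic sector V1, 3 of 9 tested genes (33.3%) rose, beside 16.6% higher and 15.5% lower of all tested genes. These 3 included both nucleotide-binding subunits of the hexameric head. *Atp6v1b2*, the non-catalytic B subunit of most tissues, was at 273, 285 and 286 CPM in TranspCtrl and 461, 467 and 447 CPM in TranspExer (0.70 ± 0.074, adjusted p = 0.000454). *Atp6v1a*, the catalytic A subunit, rose from 230, 248 and 238 CPM to 310, 321 and 327 CPM (0.42 ± 0.076, adjusted p = 0.00494). *Atp6v1c1*, a subunit of the peripheral stator that detaches when V1 leaves V0, rose from 88.5, 82.3 and 79.9 CPM to 115, 112 and 106 CPM (0.41 ± 0.077, adjusted p = 0.00627). In all 3 the TranspCtrl libraries lay close together and below TranspExer. The other tested V1 genes, *Atp6v1d*, *Atp6v1e1*, *Atp6v1f*, *Atp6v1g1*, *Atp6v1g2* and *Atp6v1h*, overlapped between the groups with log2 fold changes between −0.26 and 0.22. Of these, *Atp6v1e1*, a stalk subunit, had the widest TranspCtrl spread, at 135, 79.9 and 89.6 against 105, 107 and 89.8 CPM. Its log2 fold change was −0.012 and became 0.25 (adjusted p = 0.0242) without TranspCtrl replicate 1, while that of *Atp6v1h* went from 0.090 to 0.19 (adjusted p = 0.0210). *Atp6v1g2* had a mean count of 47.7 and overlaps *Nfkbil1* (mean count 170) on the other strand. The tissue-restricted isoform genes *Atp6v1b1* and *Atp6v1c2* had at most 4 counts in a library, and *Atp6v1e2*, *Atp6v1g3* and the neighbour gene *Atp6v1fnb* had none.

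Where several genes encode alternatives of 1 subunit or family, their levels per gene length were set against each other within each library. Among the a subunit genes of V0, *Atp6v0a1* made up 27.6%, 39.0% and 39.1% of the summed CPM per kilobase in TranspCtrl and 47.0%, 44.8% and 47.4% in TranspExer. The share of *Tcirg1*, the osteoclast a3 gene, was lower in each TranspExer library than in each TranspCtrl library, from 57.1% ± 7.25 to 48.3% ± 1.5 (SD, n = 3 each), although its own level was higher in TranspExer (253 against 345 CPM, log2 fold change 0.45 ± 0.12, adjusted p = 0.0265). That call was lost, with adjusted p between 0.0534 and 0.123, without any single library other than TranspCtrl replicate 1. Of the d subunit genes, *Atp6v0d1* took 62.7% ± 5.67 in TranspCtrl and 54.0% ± 1.77 in TranspExer, the rest being *Atp6v0d2*, the osteoclast isoform, whose level rose from 103 to 209 CPM (1.02 ± 0.082, adjusted p = 0.000136) while 7 of the 10 osteoclast markers, *Ctsk* included, fell. *Atp6v0d2* was just under 2-fold without TranspCtrl replicate 3 (0.99) or TranspExer replicate 1 (0.99). Of the 4 TFEB family genes, *Tfec* included, *Tfeb* took 14.1% ± 1.36 in TranspCtrl and 19.9% ± 0.398 in TranspExer, *Mitf* 15.3% ± 1.62 and 17.8% ± 1.31, and *Tfec* 32.6% ± 2.64 and 24.2% ± 0.861, while *Tfe3* overlapped between the groups at 38.0% ± 0.621 and 38.1% ± 1.16. Among the cathepsins of the set, without *Ctsk* (101 and 17.6 CPM per kilobase in TranspCtrl and TranspExer) and *Ctsg* (27.7 and 102), *Ctsb* went from 20.6% ± 1.55 to 24.4% ± 0.103 and *Ctsl* from 2.94% ± 0.191 to 3.79% ± 0.053, while *Ctsd* (30.8% and 30.1%) and *Ctss* (27.1% and 26.4%) kept overlapping shares. Shares that fell without overlap were those of *Ctsc* (6.09% to 4.31%), *Ctsa* (2.79% to 2.02%), *Ctsh* (2.71% to 2.31%) and the scarcer *Ctso*, *Ctsf*, *Ctse* and *Ctsw*. The shares that separated the groups without overlap gave p = 0.1 in a two-sided exact permutation test, the smallest that 3 against 3 allows, *Ctsd* and *Ctss* gave p = 0.5 and *Tfe3* p = 0.8 in the same exact test. These shares depend on the gene lengths of the table, whose derivation is not given in the sources used here.

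**Figure D3:**
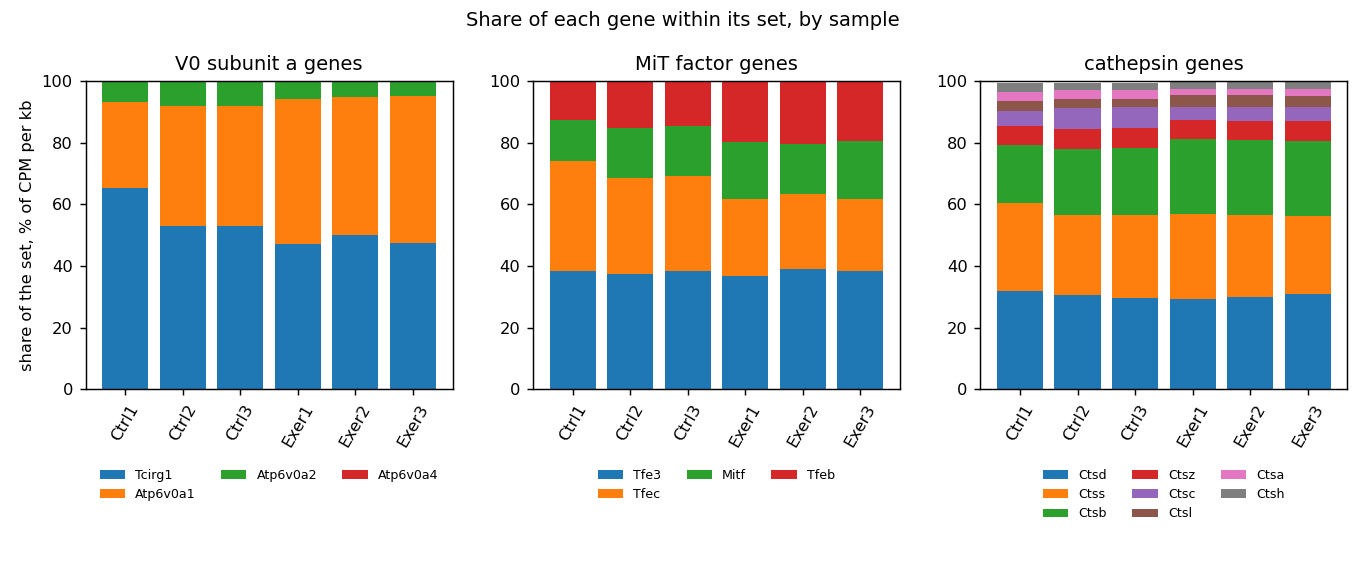
Share (%) of the V0 a subunit genes, the TFEB family (MiT factor) genes and the cathepsin genes in the summed CPM per kilobase of their group, as 1 stacked bar for each of the 6 libraries. Cathepsins under 1.5% on average are not drawn; *Atp6v0a1* takes 27.6% to 39.1% of the a subunit genes in TranspCtrl and 44.8% to 47.4% in TranspExer.

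TranspCtrl replicate 1 deviated from the other TranspCtrl libraries in both directions. On the log2 scale it was lowest against their mean for *Grn* (−0.78), *Atp6v0c* (−0.49), *Naglu* (−0.48), *Atp6v0d1* (−0.45), *Atp6v0a1* (−0.45), *Mitf* (−0.44) and *Tfeb* (−0.40), and highest for *Atp6v1e1* (0.67), *Ctsw* (0.65), *Atp6v1f* (0.57), *Ctsh* (0.56) and *Atp6v0b* (0.54). Without this library all 25 calls were kept, and *Ctsh*, *Ctso*, *Naglu*, *Mcoln1*, *Atp6v0b*, *Atp6v1e1* and *Atp6v1h* were added as higher and *Ctse* and *Glb1* as lower. That made 31 higher and 3 lower of 45, against 22.1% higher and 19.6% lower of 15494 tested genes, and *Lipa* alone remained past both thresholds. Fold changes also differed with gene length. The 9 tested genes under 1500 bases had a median log2 fold change of 0.072 and the 36 longer ones 0.40, beside −0.13 for 2988 short and 0.0080 for 12202 longer genes among all tested. The part of gene length in the result was not tested.

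**Figure D4:**
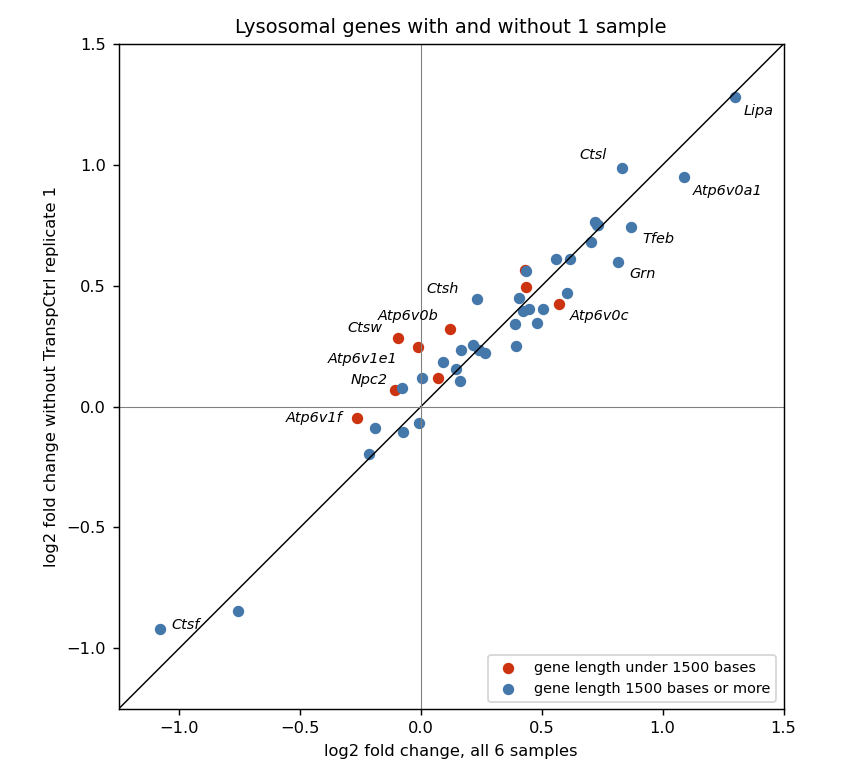
Log2 fold change of the 45 tested lysosomal genes with all 6 libraries (horizontal axis) and without TranspCtrl replicate 1 (vertical axis), coloured by gene length under or over 1500 bases, with the line of equality. *Grn* moves from 0.82 to 0.60 and *Ctsh* from 0.23 to 0.45, and *Lipa* lies close to the line.

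Companion lists placed these genes among the rest of the lysosomal system. Of 46 other lysosomal genes, 18 (39.1%) were higher and 2 (4.35%) lower, with a median log2 fold change of 0.23. For all tested genes these values were 16.6%, 15.5% and −0.018. *Ppt2*, a lysosomal thioesterase, rose from 38.9, 48.4 and 43.8 CPM to 85.6, 90.0 and 94.7 CPM (1.04 ± 0.097, adjusted p = 0.000263), and was under 2-fold without TranspCtrl replicate 1 (0.97, adjusted p = 2.05e-07) or TranspExer replicate 3 (0.995, adjusted p = 0.00324). *Laptm5*, a lysosomal membrane protein of blood cells, rose from 626, 1176 and 1153 CPM to 1953, 1928 and 2098 CPM (1.02 ± 0.22, adjusted p = 0.0109), with TranspCtrl replicate 1 lowest. Without that library its log2 fold change was 0.77 (adjusted p = 8.24e-08), and without TranspExer replicate 3 it was 0.97 (adjusted p = 0.0486), both under 2-fold. The 2 lower genes were *Arsg* (−0.47 ± 0.14, adjusted p = 0.0390) and *Hgsnat* (−0.29 ± 0.097, adjusted p = 0.0497), both of heparan sulfate breakdown and named after their values were seen. With the libraries that ended these calls left out singly, *Arsg* had an adjusted p between 0.0758 and 0.101 and *Hgsnat* between 0.103 and 0.152. The count of higher genes was 10 without TranspExer replicate 2, and that of lower genes was 0 without TranspCtrl replicate 2 or 3 or TranspExer replicate 2 or 3, and 1 without TranspExer replicate 1.

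Delivery of new hydrolases to the lysosome runs through mannose 6-phosphate receptors and sortilin. Of 10 genes of this sorting route 5 (50%) were higher and none lower, beside 16.6% higher and 15.5% lower of all tested genes. *Sort1*, sortilin, which also carries prosaposin and progranulin, rose from 86.8, 98.3 and 97.3 CPM to 185, 200 and 206 CPM (1.06 ± 0.086, adjusted p = 0.000136). Among 21 tested genes of the mTORC1 and TFEB control on the lysosomal surface, 6 (28.6%) were higher and 1 (4.76%) lower. The shares of all tested genes were again 16.6% and 15.5%. *Fnip2*, a partner of folliculin, rose from 81.2, 131 and 126 CPM to 193, 208 and 229 CPM (0.90 ± 0.17, adjusted p = 0.00714). *Lamtor1*, the Ragulator anchor, rose from 78.4, 77.0 and 80.1 CPM to 108, 106 and 98.5 CPM (0.41 ± 0.072, adjusted p = 0.00484), and *Rragd*, a Rag GTPase, rose from 4.88 ± 0.677 to 8.05 ± 0.535 CPM (0.72 ± 0.15, adjusted p = 0.00871). Autophagy genes gave 4 higher (14.3%) and 3 lower (10.7%) of 28, both near or under the shares of all tested genes. *Vps18*, of the tethering complex for fusion with lysosomes, rose (0.57 ± 0.084, adjusted p = 0.00206), as did *Atg12* (0.36 ± 0.069, adjusted p = 0.00632). *Map1lc3b*, which encodes the autophagosome protein LC3B, fell from 147, 118 and 123 CPM to 97.4, 97.9 and 92.4 CPM (−0.43 ± 0.096, adjusted p = 0.0122), a call lost without TranspExer replicate 2 or 3 (adjusted p = 0.0518 and 0.0598). None of the 4 tested cystatin and stefin genes, which encode inhibitors of cysteine cathepsins, passed with the edgeR test, and *Cst3* was at 437, 254 and 283 against 299, 270 and 266 CPM (−0.22 ± 0.19, adjusted p = 0.392).

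**Figure D5:**
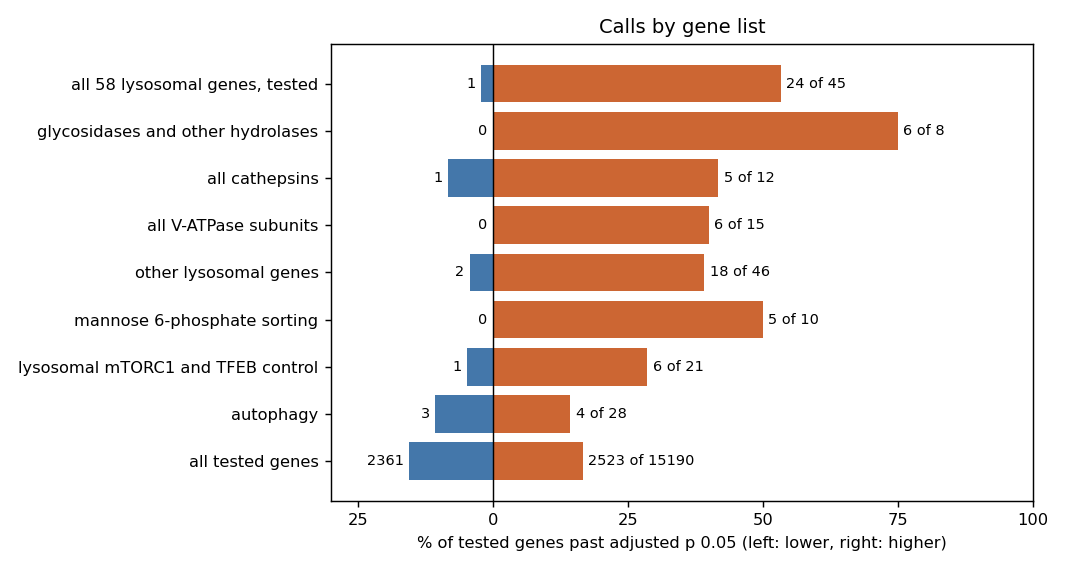
Percent of tested genes in each list that were higher (bars to the right) or lower (bars to the left) in TranspExer at an adjusted p under 0.05, with all tested genes as the background (16.6% higher, 15.5% lower). The lysosomal set reaches 53.3% higher and 2.22% lower, and autophagy genes 14.3% and 10.7%.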

How the data were processed

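RNA-Seq had been performed on 3 TranspCtrl and 3 TranspExer samples of BM MSCs (FMT-Ctrl and FMT-Exer in the labels). The deposited table holds expected counts per gene, not normalized by the authors, in which 10.1% to 12.2% of all values of a library were not whole, and 1542 genes had an identifier without a symbol and were kept. A gene length column (unit other, in bases) was also deposited. The genome build was mm10 per the submitters' processing notes, and aligner, counter and use of strand are not given in the sources used here. For the libraries, a stranded mRNA kit is named in the labels, whereas the study's methods give TruSeq. Expected counts were rounded, filtered with filterByExpr, scaled by TMM and fitted with edgeR 4.0.16 (R 4.3.3, group only, quasi-likelihood test, BH adjustment over 15190 genes). SE was the fold change divided by the root of its F value. Thresholds (adjusted p 0.05, fold change 2) followed the study's methods. Every column of the table was matched to a sample. Per-sample values are given for all 18 listed genes, for genes past both thresholds and for up to 3 genes of each group with the largest called change; from companion lists up to 4 genes past both thresholds, or up to 3 with the smallest adjusted p, were named, and markers by summed level. Further genes, such as those whose call changed without 1 library, were named after their values were seen. The members and lists were chosen with earlier results of these data known. Gene positions and overlaps were taken from GENCODE M21 and promoters from RefSeq (GRCm38.p6). Alternatives were DESeq2 1.42.0, other scalings and filters, a replicate block, a test of the fold change itself, and leaving out each library. The scripts were tested on simulated data. Rounding of estimated counts and sharing of reads between overlapping genes can affect low values most.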

Additional observations from a re-analysis of the deposited data

How the results depend on the processing

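No call among the 25 changed direction under any alternative run, and DESeq2 kept all 25 and added *Naglu*. The number higher, 24, was 20 with upper-quartile scaling or library size only, which shifted the median log2 fold change of all genes from −0.018 to −0.097 and −0.11; *Ctsd*, *Ctss*, *Tpp1* and *Lamp1* were then lost. It was 23 with the filter of 1 CPM in 3 samples (*Tpp1* lost) and with no low-count filter (*Tpp1* and *Lamp1* lost, *Naglu* added). The number lower, 1, became 3 (*Ctse* and *Glb1* added) with upper-quartile scaling, with library size only and with a filter of 1 CPM in 3 samples. With the fold change tested in the model (edgeR glmTreat), upregulated genes went from 2 to 1 and downregulated genes from 1 to 0, *Ctsf* keeping an adjusted p of 0.00153 in the quasi-likelihood test and DESeq2 counting 1. With single libraries left out, the counts ranged from 16 to 31 higher, 1 to 3 lower, 1 to 2 upregulated and 0 to 1 downregulated, and for other lysosomal genes from 10 to 25 higher and 0 to 3 lower. Deviations from the group means correlated at 0.025, −0.0020 and 0.042 for samples with the same replicate number, and between −0.081 and 0.074 for different numbers. With 3 libraries a group, these values cannot show whether the numbers pair the samples. A replicate block gave 23 higher and 1 lower, losing *Tpp1* and *Lamp1* and gaining *Naglu*. Sign changes were confined to genes without a call. *Ctsa* took −0.079, −0.086, −0.023 and −0.0060 with upper-quartile scaling, library size only, the CPM filter and no filter, *Atp6v1g1* −0.0090 and −0.017 with the first 2 of these, *Atp6v1h* −0.0010 with library size only and *Atp6v1e1* 0.020 with the replicate block. With 1 library left out, *Ctsa* ranged from −0.051 to 0.12, *Atp6v1g1* from 0 to 0.12, *Atp6v1e1* from −0.16 to 0.25, *Npc2* from −0.16 to 0.079, *Ctsc* from −0.067 to 0.033, *Ctsw* from −0.28 to 0.29 and *Atp6v0e* from −0.22 to 0.070. The causes were not tested. With 3 libraries a group, no exact test of a single value can fall below 0.1, and *Ctse*, *Ctsw* and *Atp6v1g2* rest on few counts.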
